A study of Ziziphus jujuba with 15 samples.

Results

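Newly discovered jujube genes are transcribed regions that the authors assembled from their own leaf RNA-seq reads outside the annotated genes, and 45 of them were abundant across the series. They were chosen by their measured level, as the genes with a newGene ID and a mean FPKM of 50 or more over all 15 libraries, which 45 of 3583 new genes and of 32876 genes in the whole table reached. FPKM is the number of fragments per unit of transcript length, scaled to the mapped fragments of the library, so it compares genes per length and is relative to the other genes. The libraries came from seedling leaves of the heat-sensitive jujube (Ziziphus jujuba) cultivar ‘HS’ (HS-Haoqing1 in the labels), grown in day and night temperatures of 30 and 20 °C and then heated to 45 °C in the daytime for 0, 1, 3, 5 or 7 d, with 3 libraries (replicates a, b and c) at each time point and 0 d as the control. Per the methods of the study a replicate took the sixth leaf of several random plants, while the labels speak of replicates pooled after extraction, so the tests may measure a spread that is partly technical.

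An assembled transcript with no annotation may be a missed protein-coding gene, a long non-coding RNA, an unannotated exon or untranslated end of a neighbour, or part of a repeat, and FPKM alone cannot tell these apart. The libraries were enriched for polyadenylated RNA, which in plants is mostly nuclear messenger RNA. In leaves such RNA is dominated by photosynthesis genes, and heat is known to lower much of that programme while it raises chaperones and other protective proteins. Of the 45 abundant new genes, 1 had a GO or KEGG term in the study's lists and none stood in its list of transcription factors, so the other genes are described by level and response alone. Their sequences and positions were not used here.

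The depth of the libraries, which the step size of low FPKM values reveals, was between 0.901 and 1.31 times that of replicate a at 0 d. Replicate a stood apart from the other letters at every time point. Over the 19925 genes tested, log2(FPKM + 1) correlated at 0.966 to 0.969 between replicates b and c and at 0.906 to 0.946 between replicate a and either of them. Among the abundant new genes the median absolute log2 difference was 0.44 between replicate a and replicates b or c, and 0.13 between b and c. Calls were therefore also made without it, and the values that turn on it are given beside the results. Such fits rest on replicates b and c alone, which may not be independent, so their standard error (SE) can be too small. For newGene_1545 at 3 d the SE of the log2 difference was 0.83 with all libraries and 0.07 without replicate a. Calls gained only without replicate a are given as descriptions, and no support is drawn from them. The 7 annotated chlorophyll a-b binding genes, which mark green leaf tissue, had medians between 91.4 and 3538 FPKM, and all were above 63 FPKM in every library. Their summed FPKM was 7330 to 11791 at 0 d, 17123 to 20189 at 1 d, 7760 to 12974 at 3 d, 7479 to 8216 at 5 d and 14182 to 16394 at 7 d. The new genes were measured in leaves whose marker level thus moved between time points, and its part in the results below was not tested.

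The abundant new genes ranged from 52.5 to 6575 FPKM in their mean over the libraries, with a median of 92.1 FPKM. newGene_1704 was 9.57 times as high as the next, and its mean was the highest of all 32876 genes. Second was newGene_6878 at 687 FPKM, which ranked 77 among all genes. Next in order of mean were newGene_3329 (391 FPKM), newGene_5378 (275 FPKM), newGene_549 (252 FPKM), newGene_7353 (237 FPKM), newGene_1904 (232 FPKM), newGene_2076 (218 FPKM), newGene_5351 (205 FPKM) and newGene_7861 (203 FPKM). In all 10 genes averaged 200 FPKM or more, 21 averaged 100 or more and 24 lay between 50 and 100. Just inside the limit were newGene_6365 with 52.5 and newGene_3744 with 52.8 FPKM, and just outside it newGene_6862 with 49.3 and newGene_5543 with 47.7 FPKM. Only 25 of the 45 genes had a mean of 50 FPKM or more at all 5 time points, and 12 were under 50 FPKM at 0 d. A gene of that kind could enter only by being higher in heated leaves, which bears on the sums and the rises below. Likewise a gene under 50 FPKM at a heated time point entered by being higher elsewhere, which bears on the falls.

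Together the 45 genes made up 1.93% to 2.07% of the summed FPKM at 0 d, 2.39% to 2.87% at 1 d, 2.51% to 2.65% at 3 d, 1.81% to 2.71% at 5 d and 1.75% to 2.70% at 7 d. The libraries at 1 d and 3 d all lay above those at 0 d, while the libraries at 5 d and 7 d overlapped with them. Without newGene_1704 the summed level of the other 44 genes was 5537 to 5854 FPKM at 0 d, 6046 to 6961 FPKM at 1 d, 5783 to 6844 FPKM at 3 d, 5207 to 6216 FPKM at 5 d and 5394 to 6341 FPKM at 7 d. These sums lay above the control range in all libraries at 1 d and overlapped with it at the later time points. Most of the libraries behind the choice of genes were heated, and 12 genes could enter only by their level in heat. The choice thus favours higher sums in heat, and no support is drawn from the shares or sums.

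newGene_1704 had 5646, 5530 and 5135 FPKM in replicates a, b and c at 0 d, 9947, 6841 and 6600 FPKM at 1 d, 7088, 7919 and 8015 FPKM at 3 d, 8437, 4775 and 4848 FPKM at 5 d, and 8925, 4531 and 4397 FPKM at 7 d. All libraries at 1 d and 3 d were above every library at 0 d, and at 5 d and 7 d replicate a lay above and replicates b and c below all of them. It was the highest gene of the table in 6 libraries, replicate a at 1 d, all replicates at 3 d and replicate a at 5 d and 7 d. At 0 d it ranked 5, 5 and 6. It alone took 0.919% to 1.01% of the summed FPKM at 0 d, 1.19% to 1.78% at 1 d, 1.29% to 1.46% at 3 d, 0.866% to 1.56% at 5 d and 0.800% to 1.60% at 7 d.

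**Figure D1:**
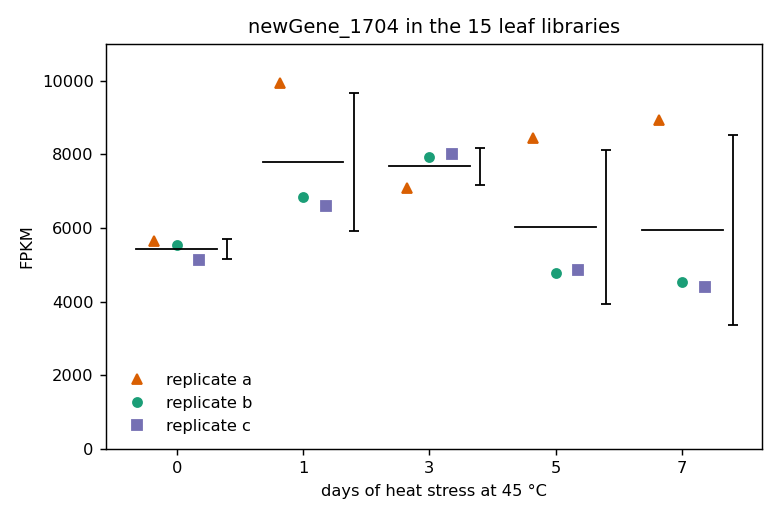
FPKM of newGene_1704 (y axis, from 0) in each of the 15 libraries by days of heat stress (x axis), with a marker for each replicate letter, a horizontal line at the mean of 3 replicates and a bar of 1 SD on each side of it. Replicate a lies between 8437 and 9947 FPKM at 1, 5 and 7 d, above replicates b and c, and at 3 d it is the lowest of the 3.

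Its mean was 5437 ± 268 FPKM at 0 d, 7796 ± 1866 FPKM at 1 d, 7674 ± 510 FPKM at 3 d, 6020 ± 2093 FPKM at 5 d and 5951 ± 2576 FPKM at 7 d (SD, n = 3 each). Differences were tested with limma on log2(FPKM + 1), and a call needed both a fold change of 2 or more and a limma p, adjusted by Benjamini-Hochberg over all genes tested, no higher than 0.01. For newGene_1704 the log2 difference was 0.50 ± 0.32 (SE) at 1 d against 0 d (limma adjusted p = 0.258), 0.50 ± 0.32 at 3 d (limma adjusted p = 0.237), 0.09 ± 0.32 at 5 d (limma adjusted p = 0.834) and 0.05 ± 0.32 at 7 d (limma adjusted p = 0.924). None of these was called. Without replicate a at all time points the log2 differences were 0.33 and 0.58 for 1 d and 3 d and -0.15 and -0.26 for 5 d and 7 d, so the sign at 5 d and 7 d rested on that replicate, and none reached a 2-fold change. Leaving out replicate a at 5 d alone gave -0.17 at 5 d, leaving it out at 7 d alone gave -0.28 at 7 d, and at 1 d it gave 0.31.

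The abundant new genes most like newGene_1704 over the 15 libraries were newGene_2700, with a Pearson r of 0.717 on log2(FPKM + 1), newGene_5544 with 0.679 and newGene_5378 with 0.655. Other new genes were not compared with it. These correlations are descriptions over libraries that share time points and replicate letters. newGene_2700 had 106, 28.6 and 25.2 FPKM in replicates a, b and c at 0 d, 448, 175 and 356 FPKM at 1 d, 150, 211 and 806 FPKM at 3 d, 124, 14.8 and 5.73 FPKM at 5 d, and 201, 104 and 85.4 FPKM at 7 d. At 5 d its replicate a was high and its replicates b and c were low, as for newGene_1704, but over a far wider range. newGene_5378 shared the high replicate a at 5 d, with 522 FPKM there against 99.5 and 116 FPKM in replicates b and c, and newGene_5544 shared it at 7 d, with 154 FPKM in replicate a and 38.6 and 21.2 FPKM in replicates b and c. None of these 3 genes was called against 0 d with all libraries. Without replicate a newGene_2700 was called higher at 1 d (log2 difference of 3.17) and 3 d (3.89), newGene_5378 at 3 d (2.04) and newGene_5544 at 5 d (1.48).

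At 1 d against 0 d, 6 of the 45 genes were called higher (13.3%; 4.49% of all genes tested) and 2 were called lower (4.44%; 5.68% of all). At 3 d 6 were higher (7.53% of all genes tested) and 2 lower (6.39% of all). At 5 d 8 were higher, against 9.28% of all genes tested, and 4 were lower, against 8.79% of all. At 7 d 5 were higher (4.14% of all genes tested) and 2 lower (4.88% of all). The median log2 difference of the 45 genes was 0.16, 0.14, 0.21 and 0.13 at 1, 3, 5 and 7 d, and that of all genes tested was 0.04, 0.12, 0.10 and 0.04. Without replicate a the median of the 45 genes was 0.35, -0.08, -0.15 and -0.03, so its sign at 3, 5 and 7 d rested on that replicate, and without replicate a at 5 d alone it was -0.03 at 5 d. Without replicate c at 0 d alone it was -0.0064 at 7 d. In all 9 genes rose in 1 or more comparisons, 5 fell in 1 or more, none did both, and 31 were called in none. Counts over several comparisons, here and below, were not made for all genes tested. They are therefore no result about the 45 genes as a set. Of the 9 that rose, newGene_6, newGene_5, newGene_7503, newGene_1545 and newGene_5969 had a mean under 50 FPKM at 0 d. These 5 could enter only by a higher level in heat. The number of rises, and the separation and p-values of these 5 genes, were thus in part set by the choice of genes. No support is drawn from them. Genes called lower with a mean under 50 FPKM at that time point numbered 1, 1, 3 and 2 at 1, 3, 5 and 7 d. They could enter only by a higher level elsewhere, so no support is drawn from the falls either.

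Among the 1932 annotated genes with a mean of 50 FPKM or more, which were chosen by the same limit, 162 were higher (8.39%) and 134 lower (6.94%) at 1 d, and 285 were higher (14.8%) and 205 lower (10.6%) at 5 d. Among the 1739 other new genes tested, all under 50 FPKM on average, 105 (6.04%) were higher and 53 (3.05%) lower at 1 d, and 189 (10.9%) were higher and 86 (4.95%) lower at 5 d. At 5 d the calls among the abundant new genes made up 26.7% of them, beside 25.4% of the annotated genes of that level and 15.8% of the other new genes. No difference between these shares was tested.

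**Figure D2:**
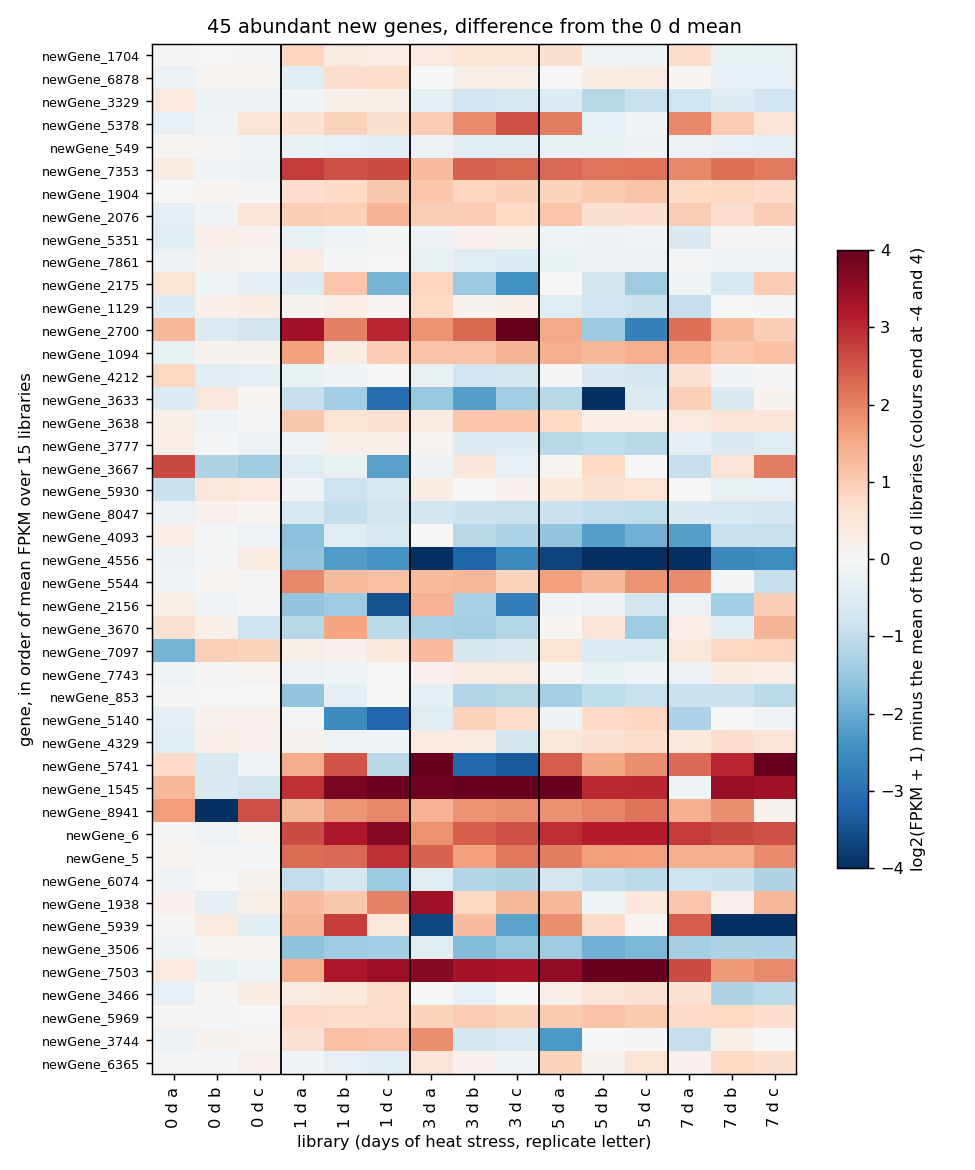
Each row is 1 of the 45 abundant new genes in order of mean FPKM and each column 1 of the 15 libraries, ordered by days of heat stress and then by replicate letter. Colour gives log2(FPKM + 1) minus the mean of the 3 libraries at 0 d, red for higher and blue for lower, with colours ending at -4 and 4. newGene_7353, newGene_1545, newGene_6, newGene_5 and newGene_7503 are red in nearly all heated libraries and newGene_4556 is blue in all of them, while rows such as newGene_5741 and newGene_5939 change colour between replicates of a time point.

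newGene_6, newGene_5, newGene_7353 and newGene_7503 were the 4 genes called higher in all 4 comparisons with 0 d. newGene_6 had 11.2, 9.91 and 11.7 FPKM in replicates a, b and c at 0 d, 72.5, 112 and 146 FPKM at 1 d, 40.3, 62.4 and 68.4 FPKM at 3 d, 90.6, 103 and 103 FPKM at 5 d, and 82.0, 74.0 and 70.1 FPKM at 7 d. Every heated library was above every library at 0 d, but with a mean of 10.9 FPKM at 0 d newGene_6 reached the limit through its heated libraries. Its log2 difference was 3.16 ± 0.23 (SE) at 1 d (limma adjusted p = 3.4e-06), 2.25 at 3 d, 3.07 at 5 d and 2.68 ± 0.23 at 7 d (limma adjusted p = 1.06e-05). At 1 d this was 8.96-fold on the log2(FPKM + 1) scale, and the rise at 3 d was the lowest of the 4. The calls at 3 d and 7 d were lost without replicate b at all time points (2.11 and 2.63).

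newGene_5, whose number is next to that of newGene_6 in the authors' list, had 20.01, 17.4 and 17.7 FPKM at 0 d, 89.3, 92.7 and 147 FPKM at 1 d, 98.7, 59.0 and 81.8 FPKM at 3 d, 78.0, 61.1 and 59.4 FPKM at 5 d, and 50.3, 52.3 and 70.3 FPKM at 7 d. Again no heated library overlapped with 0 d, but the mean there was 18.4 FPKM. newGene_5 too reached the limit through its heated libraries. newGene_5 differed from 0 d by a log2 value of 2.48 ± 0.22 at 1 d (limma adjusted p = 1.16e-05), 2.03 at 3 d, 1.79 at 5 d and 1.59 ± 0.22 at 7 d (limma adjusted p = 0.000242). The call at 7 d was lost without replicate b (1.61) or c (1.41) at all time points. Over the 15 libraries newGene_5 and newGene_6 correlated at 0.878, and newGene_6 and newGene_7353 at 0.950, the highest of the 990 pairs among the 45 genes.

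newGene_7353, the most abundant of the genes that rose, had 71.4, 53.5 and 50.1 FPKM at 0 d, 411, 343 and 360 FPKM at 1 d, 138, 297 and 290 FPKM at 3 d, 280, 260 and 264 FPKM at 5 d, and 223, 272 and 246 FPKM at 7 d. Its libraries at 1 d were the highest of all, and replicate a at 3 d was the lowest of the heated ones while still above 0 d. The gene was higher by 2.66 ± 0.24 (log2) at 1 d (limma adjusted p = 1.4e-05), 1.97 at 3 d, 2.20 at 5 d and 2.08 ± 0.24 at 7 d (limma adjusted p = 8.06e-05). Its calls at 1, 3 and 7 d were lost without replicate b at all time points (2.665, 1.72 and 1.95). They were likewise lost without replicate c (2.58, 1.695 and 1.98).

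newGene_7503 had the largest fitted rise of the 45 genes with all libraries, 16.4-fold at 5 d, beside 15.7-fold for newGene_1545 at 3 d. Without replicate a the order was turned, with log2 differences of 4.48 for newGene_7503 at 5 d and 4.65 for newGene_1545 at 3 d. It had 8.29, 4.84 and 5.45 FPKM at 0 d, 18.01, 65.2 and 73.7 FPKM at 1 d, 86.5, 69.8 and 66.4 FPKM at 3 d, 80.4, 138 and 134 FPKM at 5 d, and 42.3, 21.8 and 25.1 FPKM at 7 d. Heated and control libraries did not overlap, and the libraries at 7 d were all below those at 3 d and 5 d. Its mean at 0 d was 6.19 FPKM, so newGene_7503 reached the limit through its heated libraries. The log2 difference was 2.69 ± 0.44 at 1 d (limma adjusted p = 0.000606), 3.41 at 3 d, 4.03 ± 0.44 at 5 d (limma adjusted p = 2e-05) and 2.07 at 7 d (limma adjusted p = 0.00352). The call at 7 d was lost without replicate b or replicate c at 0 d (log2 differences of 1.93 and 2.003) and without replicate a at 7 d (1.79). Without replicate b at all time points the calls at 1, 3 and 7 d were lost (2.28, 3.31 and 2.12). The same calls were lost without replicate c (2.27, 3.42 and 2.09).

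newGene_1545 rose at 1, 3 and 5 d and newGene_1094 at 3, 5 and 7 d. newGene_1545 had 17.3, 4.004 and 3.48 FPKM in replicates a, b and c at 0 d, 55.6, 101 and 111 FPKM at 1 d, 110, 116 and 120 FPKM at 3 d, 151, 57.8 and 59.0 FPKM at 5 d, and 5.60, 81.4 and 77.4 FPKM at 7 d. Heated and control libraries were apart at 1, 3 and 5 d, and at 7 d replicate a lay within the 0 d range while replicates b and c did not. Its mean at 0 d was 8.26 FPKM, so newGene_1545 reached the limit through its heated libraries. The log2 difference was 3.54 ± 0.83 at 1 d (limma adjusted p = 0.00601), 3.97 at 3 d (limma adjusted p = 0.00229) and 3.45 at 5 d (limma adjusted p = 0.00453). Without replicate b or c at 0 d all of these calls were lost, with log2 differences of 3.26 and 3.18 for 1 d, 3.68 and 3.60 for 3 d, and 3.17 and 3.09 for 5 d. The call at 1 d was also lost without any one library at 1 d (3.85, 3.42 and 3.36 without a, b and c), and that at 5 d without any one library at 5 d (3.00, 3.69 and 3.67). Without replicate b or c at all time points the calls at 1, 3 and 5 d were lost too. Without replicate a at all time points the log2 difference at 7 d was 4.09 and was called.

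newGene_1094 had 70.2, 96.5 and 96.0 FPKM at 0 d, 265, 109 and 176 FPKM at 1 d, 194, 191 and 223 FPKM at 3 d, 236, 221 and 241 FPKM at 5 d, and 232, 187 and 198 FPKM at 7 d. All heated libraries were above all control libraries, but at 1 d the replicates spread over more than the distance to 0 d. The log2 difference was 1.21 ± 0.24 at 3 d (limma adjusted p = 0.00173), 1.41 at 5 d (limma adjusted p = 0.000484) and 1.23 at 7 d (limma adjusted p = 0.00227). At 1 d the fold change was 1.98 (limma adjusted p = 0.00794), short of the 2-fold limit. The call at 7 d was lost without replicate a at 0 d (1.08) or at all time points (0.99). It was also lost without replicate b (1.37) or c (1.33) at all time points. The call at 3 d was lost without replicate b (1.33) or c (1.21) at all time points, and that at 5 d without replicate c (1.46).

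newGene_5969 and newGene_1904 were higher in all heated libraries than in any control library, with little spread between replicates, and passed the 2-fold limit at 5 d only. newGene_5969 had 32.3, 30.5 and 31.6 FPKM at 0 d, 54.6, 53.2 and 52.8 FPKM at 1 d, 59.3, 64.2 and 61.0 FPKM at 3 d, 65.6, 70.5 and 65.5 FPKM at 5 d, and 54.1, 55.0 and 50.8 FPKM at 7 d. No replicate letter stood apart in it, and its largest CV at any time point, 4.25%, was the lowest of the 45 genes. At 0 d newGene_5969 averaged 31.5 FPKM, so it reached the limit of 50 FPKM through its heated libraries. No support is drawn from its separation or p-values. At 5 d its log2 difference was 1.07 ± 0.07 (limma adjusted p = 8.83e-07), which median-of-ratios scaling brought to 0.96, under the limit. At 1, 3 and 7 d the limma adjusted p was also under 0.01, with fold changes of 1.68, 1.92 and 1.67. newGene_1904 had 135, 142 and 129 FPKM at 0 d, 215, 233 and 286 FPKM at 1 d, 290, 244 and 265 FPKM at 3 d, 248, 282 and 297 FPKM at 5 d, and 237, 241 and 232 FPKM at 7 d. Its log2 difference at 5 d was 1.02 ± 0.12 (limma adjusted p = 2.61e-05), and at 1, 3 and 7 d the limma adjusted p was again under 0.01, with fold changes of 1.79, 1.96 and 1.75. At 5 d it was under the 2-fold limit without replicate c at 0 d (0.99), without replicate c at 5 d (0.97) and with median-of-ratios scaling (0.91). Its call was also lost without replicate b (1.04) or c (0.93) at all time points. The pair correlated at 0.939 over the 15 libraries.

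**Figure D3:**
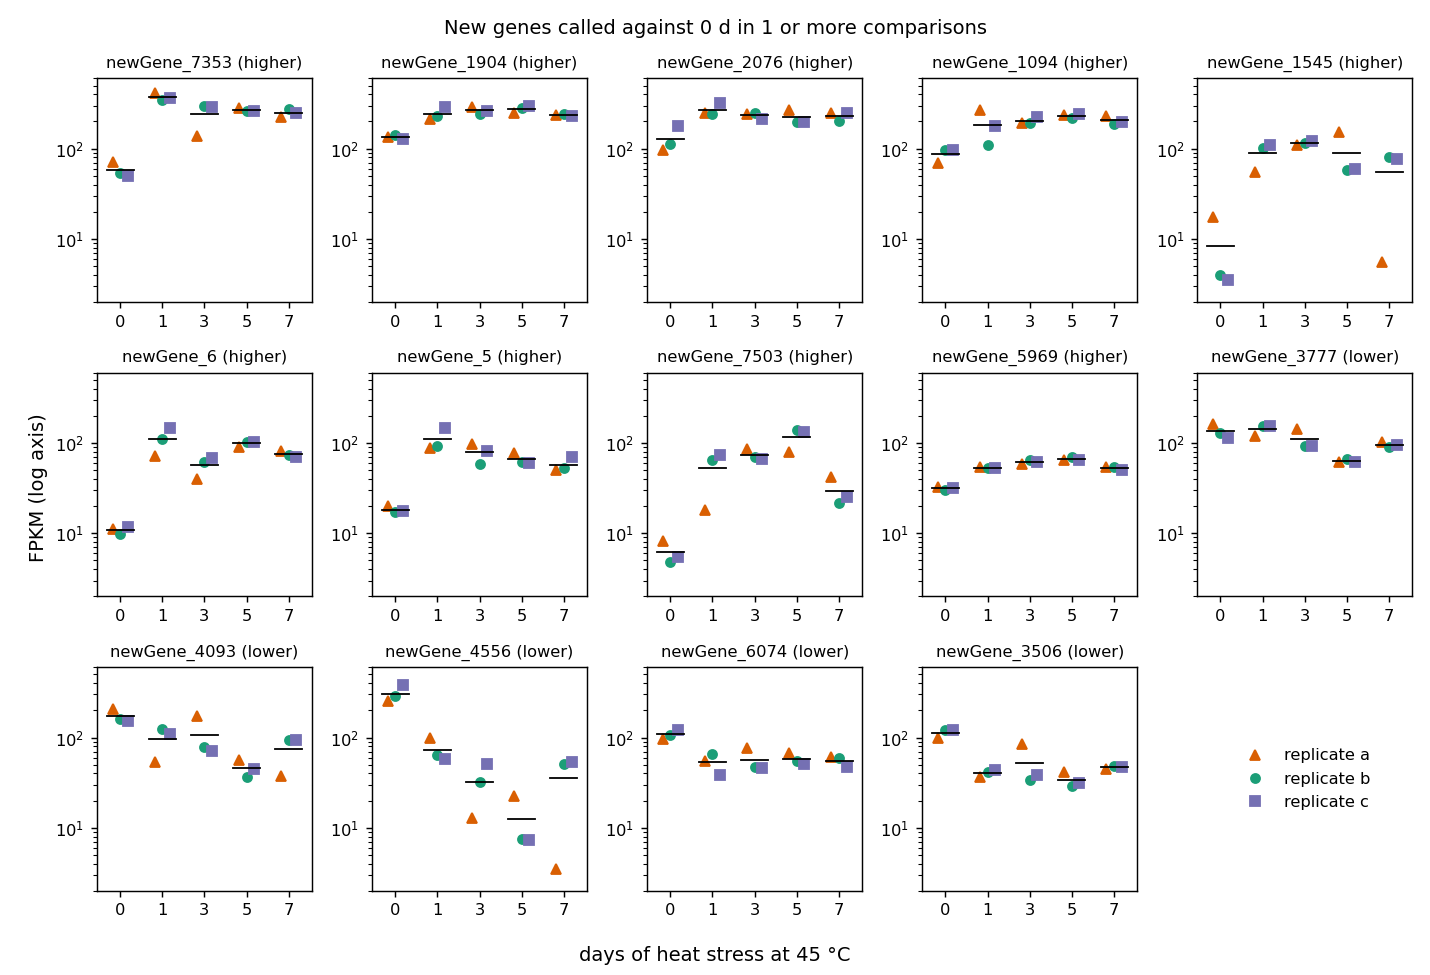
FPKM on a log axis against days of heat stress for the 14 abundant new genes called in 1 or more comparisons with 0 d, 9 higher and then 5 lower, with a marker for each replicate letter and a line at the mean of 3. newGene_6 and newGene_5 lie above 40 FPKM in every heated library and at or below 20.01 FPKM at 0 d, and replicate a of newGene_1545 at 7 d lies far below replicates b and c.

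newGene_2076 was the only one of the 45 genes with terms in the study's lists, which placed it under photosynthesis, oxidative phosphorylation and ATP synthesis coupled proton transport. ATP synthases of chloroplasts and mitochondria carry out that last step, in which protons flowing through the membrane drive the making of ATP. newGene_2076 had 249, 241 and 323 FPKM at 1 d against 95.8, 114 and 177 FPKM at 0 d, without overlap, and rose by 1.10 ± 0.21 on the log2 scale (limma adjusted p = 0.00167). The call was lost without replicate a at 0 d (0.91) or at all time points (0.97) and without replicate c at 1 d (0.97). It was also lost without replicate b (1.115) or c (1.22) at all time points. It had 245, 251 and 215 FPKM at 3 d, 270, 196 and 199 FPKM at 5 d, and 249, 201 and 246 FPKM at 7 d, all above 0 d but with log2 differences of 0.92, 0.81 and 0.88 that were not called. Of the 90 annotated genes in the same photosynthesis and ATP synthesis lists, 7 were called higher and 23 lower at 1 d with a median log2 difference of -0.65, and 4 were higher and 32 lower at 5 d with a median of -0.86. These lists were held only in part, and the study had drawn them from genes that changed in these libraries or those of its other cultivar, so they are no independent evidence of a direction. None of the 45 genes stood in the study's lists for carbon metabolism, translation, RNA processing, or protein folding and degradation.

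newGene_4556 had the largest fall, to 0.0392 times its level at 0 d by 5 d. With a mean of 307 FPKM at 0 d and 12.5 to 73.7 FPKM at the heated time points, it reached the limit through its control libraries. It had 257, 286 and 378 FPKM in replicates a, b and c at 0 d, 99.8, 63.3 and 57.9 FPKM at 1 d, 12.8, 31.8 and 51.2 FPKM at 3 d, 22.5, 7.60 and 7.33 FPKM at 5 d, and 3.46, 50.3 and 53.1 FPKM at 7 d. Every heated library was below every control library, with replicate a at 7 d far below the other letters. Log2 differences of newGene_4556 were -3.40 ± 0.81 at 3 d (limma adjusted p = 0.00499), -4.67 ± 0.81 at 5 d (limma adjusted p = 0.000506) and -3.72 ± 0.81 at 7 d (limma adjusted p = 0.00409). The call at 3 d was lost without any one control library (-3.52, -3.44 and -3.24 without a, b and c) and without replicate a (-2.87) or b (-3.50) at 3 d. The call at 7 d was lost without any one control library (-3.83, -3.76 and -3.56), and the comparison at 1 d, not called with all libraries, was called without replicate a at every time point (-2.42). The calls at 3, 5 and 7 d were all lost without replicate b or c at every time point. At 5 d the log2 differences were then -4.48 and -4.26.

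newGene_3506 was the only gene that fell in all 4 comparisons. Its mean was 113 FPKM at 0 d and 40.5, 52.1, 34.2 and 46.7 FPKM at 1, 3, 5 and 7 d. It thus reached the limit of 50 FPKM through its control libraries. It had 99.1, 120 and 121 FPKM at 0 d, 36.4, 42.0 and 43.2 FPKM at 1 d, 84.2, 33.6 and 38.6 FPKM at 3 d, 41.9, 29.3 and 31.4 FPKM at 5 d, and 44.4, 48.6 and 47.0 FPKM at 7 d. Replicate a at 3 d was the one heated library near the control range, and no heated library reached it. Log2 differences were -1.46 ± 0.26 at 1 d (limma adjusted p = 0.00112), -1.22 at 3 d (limma adjusted p = 0.00261), -1.71 at 5 d (limma adjusted p = 0.000209) and -1.26 at 7 d (limma adjusted p = 0.00306). The call at 3 d was lost without replicate b or c at 0 d (-1.18 and -1.17) or at 3 d (-0.97 and -1.07), and that at 7 d without replicate b or c at 0 d (-1.21 each), replicate a at 7 d (-1.22) or replicate c at 7 d (-1.26). All 4 calls were lost without replicate b or c at all time points. The log2 differences were then -1.44 and -1.46 at 1 d, and -1.565 and -1.61 at 5 d.

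Another 3 genes passed both limits downward at a single time point. newGene_6074 had 54.5, 66.3 and 38.0 FPKM at 1 d against 97.5, 108 and 120 FPKM at 0 d, and fell by 1.05 on the log2 scale (SE 0.22, limma adjusted p = 0.003). The call was lost without replicate b (-1.05) or c (-0.98) at 0 d and without replicate c at 1 d (-0.84). At 3, 5 and 7 d newGene_6074 was at 0.514, 0.535 and 0.513 times its control level with a limma adjusted p under 0.01, short of the 2-fold limit. newGene_4093 had 56.8, 36.4 and 44.9 FPKM at 5 d against 208, 162 and 153 FPKM at 0 d, a log2 difference of -1.91 ± 0.42 (limma adjusted p = 0.00245), lost without replicate a at 0 d (-1.77) or replicate b at 5 d (-1.75). At 7 d it was at 0.400 times the control level (limma adjusted p = 0.0284). newGene_3777 had 61.8, 66.3 and 61.4 FPKM at 5 d against 162, 131 and 113 FPKM at 0 d, a log2 difference of -1.07 ± 0.18 (limma adjusted p = 0.00033), which was -0.93 without replicate a at 0 d and -0.92 without replicate a at all time points. In all 3 genes the groups did not overlap at these time points. Their calls were also lost without replicate b or without replicate c at all time points.

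The counts of falls moved with single libraries, and the share of all genes called was not taken for those fits. At 1 d 1 gene was called lower without replicate b or c at 0 d or without replicate c at 1 d. At 3 d none was called lower without replicate b or c at 0 d or replicate b at 3 d, and 1 without replicate c at 3 d. At 7 d 1 was called lower without replicate a at 0 d or replicate c at 7 d, none without replicate b or c at 0 d, and 4 without replicate a at 7 d. Without replicate a at every time point 7 genes were called higher and 5 lower at 1 d, 9 higher and 7 lower at 3 d, 9 higher and 7 lower at 5 d, and 5 in each direction at 7 d. Of all 19316 genes then tested, 7.93%, 9.45%, 11.7% and 5.82% were called lower at 1, 3, 5 and 7 d, and 6.56%, 10.9%, 11.6% and 6.42% were called higher. Of the 35 calls made with all libraries, leaving out replicate a kept 32, leaving out b kept 9 and leaving out c kept 10. Leaving out replicate a gave 62 calls in all, from fits that rest on the close replicates b and c.

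At 7 d against 5 d none of the 45 genes was called in either direction by limma. Of all genes tested, 0.386% were called higher and 0.296% lower. The unadjusted limma p was no higher than 0.05 for 9 of the 45. It was so for 5473 of all 19925 genes tested, a larger share. newGene_5969 had the lowest limma adjusted p, 0.0204, with a log2 difference of -0.33. Among genes past the fold limit newGene_7503 had the lowest, with 42.3, 21.8 and 25.1 FPKM at 7 d against 80.4, 138 and 134 FPKM at 5 d, a log2 difference of -1.97 ± 0.44 (limma adjusted p = 0.022). Without replicate a at all time points 4 genes were called higher and 4 lower, beside 6.69% and 3.96% of all genes tested. Those called higher were newGene_2700 (3.21), newGene_4556 (2.64), newGene_7097 (1.37) and newGene_4093 (1.18), and those called lower were newGene_5939 (-5.19), newGene_7503 (-2.49), newGene_5544 (-2.05) and newGene_3466 (-1.68), with log2 differences in parentheses. Leaving out replicate a at 7 d alone gave 4 genes called lower and none higher, and leaving out replicate a at 1 d gave 1 called lower. The share of all genes called was not taken for these fits.

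Other abundant new genes were not called at any time point. By the largest log2 difference from 0 d in either direction newGene_5351 changed least, with values between -0.19 and 0.03. It had 146, 226 and 205 FPKM at 7 d beside 158, 262 and 244 FPKM at 0 d. newGene_7743 followed with differences between -0.14 and 0.27, and newGene_6878 with differences between -0.20 and 0.33. newGene_6878 had 537, 679 and 672 FPKM at 0 d, 466, 1002 and 1047 FPKM at 1 d, 618, 735 and 719 FPKM at 3 d, 632, 762 and 788 FPKM at 5 d, and 656, 496 and 498 FPKM at 7 d. Replicate a was the lowest of its time point in all but the last. Replicates b and c were both above every control library at 1, 3 and 5 d and below all of them at 7 d. newGene_549 had between 217 and 261 FPKM in all heated libraries, against 313, 308 and 278 FPKM at 0 d, without overlap but with differences under the 2-fold limit. newGene_3329 had 646, 435 and 434 FPKM at 0 d, 459, 570 and 583 FPKM at 1 d, 381, 290 and 321 FPKM at 3 d, 337, 230 and 268 FPKM at 5 d, and 284, 347 and 283 FPKM at 7 d. Its libraries at 3, 5 and 7 d all lay below the control range, with log2 differences of -0.59, -0.85 and -0.71 that were also under the limit. newGene_7861 had between 151 and 281 FPKM over the libraries, and its libraries lay below the control range at 3 d and 5 d and overlapped with it at 1 d and 7 d, with no call. newGene_8047, named here after its values were seen, had 75.9 to 105 FPKM in heated libraries against 131, 175 and 162 FPKM at 0 d. It was at 0.582, 0.560, 0.514 and 0.653 times its control level at 1, 3, 5 and 7 d. Each limma adjusted p was under 0.01, but the changes were short of the 2-fold limit.

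Replicates of the abundant new genes spread widely. The largest CV within a time point had a median of 47.9% over the 45 genes and of 22.3% over the 1932 annotated genes with a mean of 50 FPKM or more, and it passed 50% in 22 of the new genes (48.9%) and in 248 of the annotated genes (12.8%). It passed 100% in 10 (22.2%) and 52 (2.69%). This is a description of genes chosen by level, with no test. Members of both sets were closer between replicates b and c than between replicate a and the others, with a median absolute log2 difference of 0.07 between b and c and 0.25 between a and the others among the annotated genes.

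**Figure D4:**
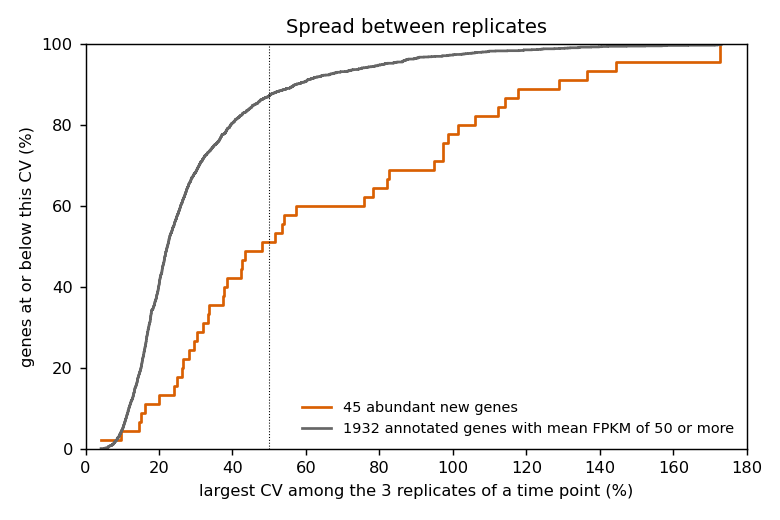
For each gene the largest coefficient of variation among the 3 replicates of any time point (x axis, %) against the share of genes at or below it (y axis, %), for the 45 abundant new genes and the 1932 annotated genes with a mean of 50 FPKM or more. A dotted line marks 50%, which 22 of the new genes (48.9%) and 248 of the annotated genes (12.8%) pass.

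The most variable genes were newGene_5939 and newGene_5741, each with a CV of 173% at 1 time point. newGene_5939 had 31.3, 40.0 and 21.8 FPKM at 0 d, 78.8, 211 and 41.8 FPKM at 1 d, 1.52, 72.6 and 6.13 FPKM at 3 d, 111, 51.4 and 31.9 FPKM at 5 d, and 164, 0.0590 and 0.227 FPKM at 7 d. newGene_5741 had 19.2, 6.77 and 9.48 FPKM at 0 d, 32.3, 66.7 and 4.48 FPKM at 1 d, 251, 0.368 and 0.150 FPKM at 3 d, 62.5, 33.1 and 41.9 FPKM at 5 d, and 55.9, 95.5 and 398 FPKM at 7 d. Each was abundant in some replicates and almost absent from others of the same time point, and their membership rests on a few libraries. newGene_8941, named here after its values were seen, had 24.1 to 101 FPKM in heated libraries, against 71.5, 0.186 and 133 FPKM at 0 d, so that a single control library was nearly without it.

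Part of this variation was shared. newGene_2175, newGene_5741, newGene_2156 and newGene_3670, also singled out after their values were seen, were all high in replicate c at 7 d, with 419, 398, 212 and 216 FPKM there. In replicates a and b at 7 d newGene_2175 had 186 and 138 FPKM, newGene_5741 55.9 and 95.5 FPKM, newGene_2156 90.6 and 41.6 FPKM, and newGene_3670 101 and 62.4 FPKM. In replicate a at 3 d newGene_2175, newGene_5741 and newGene_2156 had 381, 251 and 281 FPKM, against at most 75.3 FPKM in replicates b and c, while newGene_3670 did not share this. newGene_2175 correlated over the 15 libraries at 0.759 with newGene_5741, 0.744 with newGene_2156 and 0.685 with newGene_3670. The other pairs were lower, at 0.634 for newGene_2156 with newGene_5741, 0.449 for newGene_3670 with newGene_5741 and 0.350 for newGene_2156 with newGene_3670. newGene_3667 was also high in replicate c at 7 d, with 38.6, 107 and 312 FPKM in replicates a, b and c. It correlated with these 4 genes at 0.338 to 0.467. These correlations describe genes picked for their spread in libraries that share time points and letters, and none of the 4 genes was called against 0 d.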

How the data were processed

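Leaf RNA of the cultivar ‘HS’ was measured in 15 libraries, 3 per time point. The authors filtered the reads, used Bowtie 2 and TopHat 2 for mapping and Cufflinks for transcript assembly, and the table they deposited gives FPKM for each gene in each library, with no counts and no intervals. The submitters' notes name Trimmomatic 0.36 and FastQC. The genome build and the mapper versions are not given in the sources used here. How reads shared between neighbours or copies were assigned is also not given.

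Samples were grouped by their labels. Values were taken as log2(FPKM + 1), which understates changes of low genes. The 19925 genes with 1 FPKM or more in at least 3 libraries entered limma 3.58.1 under R 4.3.3 (intensity trend, time point only, 10 residual degrees of freedom). All 45 genes passed this filter. The limma step was also run on simulated data. Those had independent libraries, without the distance of replicate a from b and c, so they do not vouch for the tests here. Tables and plots were made in Python 3.11.15 with pandas 2.3.3 and matplotlib 3.10.9. Alternatives were another pseudocount, no filter, other scalings, the replicate letter as a block, smaller fits, other thresholds, and fits without 1 letter or 1 library.

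The genes and lists were chosen with earlier results of these data known. Named are newGene_1704, the 10 highest genes, the 3 largest rises and falls called at each time point, genes with study terms, the 3 smallest responses, the genes beside the limit, the 3 most like newGene_1704, the 2 with the largest CV, and the remaining called genes. The labels and the methods of the study differ on extraction kit, instrument and pooling. The 7 d libraries are named only in the labels.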

Additional observations from a re-analysis of the deposited data

How the results depend on the processing

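None of the 35 calls changed direction under any alternative, but leaving out libraries moved many counts. Over the fits without 1 library or 1 replicate letter, the genes called higher numbered 2 to 7 at 1 d, 1 to 9 at 3 d, 5 to 9 at 5 d, 0 to 6 at 7 d and 0 to 4 at 7 d against 5 d, and those called lower 0 to 5 at 1 d, 0 to 7 at 3 d, 0 to 7 at 5 d, 0 to 5 at 7 d and 0 to 4 at 7 d against 5 d. With no minimum fold change 10 genes were higher and 5 lower at 3 d, 7 lower at 5 d, and 8 higher and 4 lower at 7 d. Quantile normalization gave 1 lower at 1 d, median-of-ratios scaling 7 lower at 5 d, the fit of the 6 libraries compared 1 lower at 7 d, and an adjusted p of 0.05 gave 1 lower at 7 d against 5 d. The cause of these differences was not tested, beyond the fewer libraries or looser limits of each fit.

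newGene_1704, which was not called, changed sign at 5 d with median-of-ratios scaling (-0.022), without replicate a at 5 d (-0.17) and without replicate a at all time points (-0.15), and at 7 d without replicate a at 7 d (-0.28) or at all time points (-0.26). Over all fits without a library or letter it ranged from -0.17 to 0.25 at 5 d and from -0.28 to 0.23 at 7 d. Median-of-ratios scaling moved the median log2 difference of all genes at 3 d to 0.00305, where it was 0.12 as deposited. Deviations of libraries with the same letter correlated at -0.10 to 0.12 between time points, and 9 of 15 libraries correlated best with their own letter, so the letters were not taken as pairs. With the replicate block the genes called higher numbered 5, 7, 8 and 5 at 1, 3, 5 and 7 d, those called lower 2, 2, 4 and 2, and none was called at 7 d against 5 d, and only newGene_1545 at 1 d lost its call (3.54). A limit of 25 FPKM would have taken 91 new genes, a limit of 100 FPKM 21, and a mean over 12 libraries without 7 d 45, of which 43 are in both. Without counts, depth sets no interval, and 3 libraries per time point limit the precision.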
